A study of Felis catus with 6 samples.

Results

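IL6, IL11, IL1B, TNF and BIRC3 were followed in FCGS lesions and in healthy oral mucosa, as 5 of the 21529 Ensembl identifiers in the deposited tables. IL6, IL11, IL1B and TNF encode inflammatory cytokines, and BIRC3 is a target gene of NF-kappa B. The 5 symbols were found in the supplementary table of the study, and each was tied to the only identifier whose lesion and healthy values matched it. All 5 were at or above 1 FPKM in at least 3 libraries and were tested. Because that table is limited to genes with a difference of 2-fold or more, a difference was needed for a name to exist.

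RNA was sequenced from 6 biopsies of 3 pet cats named Bart, Jerome and Sadie in the labels, with 1 FCGS lesion and 1 adjacent healthy biopsy per cat (n = 3 per tissue). The study describes its cats as edentulous, not responsive to tooth extraction, negative for FIV and FeLV, and treated with buprenorphine but not with immunosuppressants or antibiotics. Healthy mucosa therefore came from the mouths of diseased cats, and no cat without FCGS was sequenced. Neither the breed nor the age of a single cat is given in the labels.

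FPKM values are read counts scaled for transcript length and library size, and 12856 to 13171 identifiers per library reached 1 FPKM. Reads per library are not in the files. The steps between low values gave a relative depth up to 1.76 times that of the lesion of Sadie (lowest), in healthy mucosa of Bart (highest), provided that reads alone set the scaling. Only 1 of 19 markers of oral epithelium had a name, KRT4, the keratin of mature oral epithelium, which measured 8.995, 2534 and 569 FPKM in the lesions of Bart, Jerome and Sadie, against 2089 FPKM in healthy mucosa of Bart and a listed 0 in that of Jerome and of Sadie. It was thus lower in the lesion of Bart and higher in the lesions of the other cats, and its part in the results was not tested. The labelled mucosa also held muscle: 14 named skeletal muscle genes of 18 summed to 5733 FPKM in the Jerome lesion, 5057 FPKM in the Sadie lesion and 2510 FPKM in healthy mucosa of Sadie, and to 20.8 FPKM or less in the other 3 libraries. In bulk tissue, fewer cells of a type and less RNA per cell cannot be told apart.

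Interleukin 1 beta and TNF are early cytokines of inflammation. Both act through receptors that switch on NF-kappa B, and NF-kappa B in turn drives IL6, chemokine genes, adhesion molecules and inhibitors of cell death such as BIRC3. IL-6 and IL-11 bind receptors of their own and share the signaling chain gp130, which activates STAT3. In oral mucosa these cytokines come from epithelium, fibroblasts, endothelium and infiltrating leukocytes, and they recruit neutrophils and act on lymphocytes and plasma cells.

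All 5 genes were higher in the lesion than in the healthy mucosa of each of the 3 cats, a pattern shared by 28.6% of the 13327 identifiers tested. IL6, IL11 and IL1B differed by more than 10-fold between the means of log2 values, whereas TNF differed by 2.05-fold and BIRC3 by 2.70-fold. With tissue as the only term, limma called 1 of the 5 genes higher in lesions, BIRC3, against 5.31% of all identifiers called higher and 6.61% called lower (adjusted p under 0.05, Benjamini-Hochberg over all identifiers). With the cat as a block, which the labels support because both biopsies came from the same animal, limma called 5 of 5, against 12.2% of all identifiers called higher and 11.1% called lower. With the block, fewer were called when a cat was left out: 3 of the 5 genes (IL6, IL11 and IL1B) without Bart and 0 without Jerome or without Sadie. Without Bart the adjusted p from limma was 0.0497 for each of these 3 and 0.051 for BIRC3, just either side of 0.05. Over all 13327 identifiers the same fits called 1032 without Bart, 97 without Jerome and 0 without Sadie, so the loss was not particular to the 5 genes. All 5 had an unadjusted p under 0.05 each time, as did 5084 identifiers without Bart, 3817 without Jerome and 3648 without Sadie. Of the 1292 named identifiers that were higher in lesions, 31.5% were called without the block and 68.9% with it, and the 5 genes are read against these shares too, since a name required a difference.

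**Figure D1:**
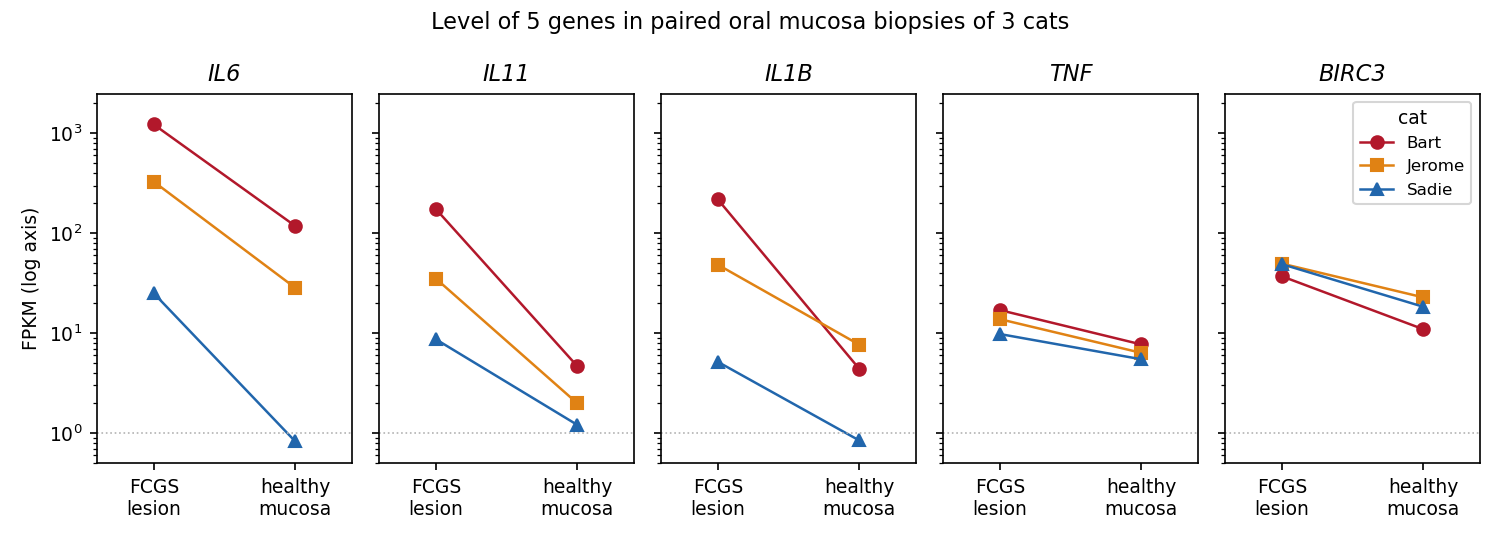
FPKM (vertical axis, log scale) of IL6, IL11, IL1B, TNF and BIRC3 in the FCGS lesion (left) and healthy mucosa (right) of each cat, with 1 point per library and a line joining the 2 biopsies of a cat. Each line falls toward healthy mucosa; the cats lie far apart for IL6 (1224 to 25.0 FPKM in lesions) and close together for BIRC3 (37.1 to 49.6 FPKM in lesions). The dotted line marks 1 FPKM, the floor used before log2.

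IL6, the cytokine that drives plasma cell survival and the acute phase response, measured 1224, 328 and 25.0 FPKM in the lesions of Bart, Jerome and Sadie, against 118, 28.5 and 0.828 FPKM in their healthy mucosa. Within each cat the lesion was higher, but healthy mucosa of Bart held more IL6 than the lesion of Sadie, so the tissues overlapped. The lesion was 10.3-fold higher in Bart, 11.5-fold in Jerome and 25.0-fold in Sadie, the last against a healthy value raised to the floor of 1 FPKM. The mean log2 difference was 3.85 (standard error 2.12, adjusted p = 0.27 from limma), and with the cat as a block the same difference had a standard error of 0.31 (adjusted p = 0.022). IL6 was among the most abundant transcripts of the lesion of Bart, ranking 122nd of 21529 identifiers, and it ranked 387th in the lesion of Jerome and 3802nd in that of Sadie.

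IL11, the gp130 cytokine made mainly by fibroblasts and other stromal cells, measured 175, 35.2 and 8.69 FPKM in the lesions of Bart, Jerome and Sadie, against 4.68, 1.99 and 1.21 FPKM in their healthy mucosa. Every lesion lay above every healthy biopsy, although Sadie was the lowest in both tissues. The lesion was 37.3-fold higher in Bart, 17.7-fold in Jerome and 7.18-fold in Sadie. The mean log2 difference was 4.07 (standard error 1.13, adjusted p = 0.066 from limma, and 0.022 with the cat as a block). This difference ranked 37th of the 13327 identifiers tested, ahead of IL6 (48th) and IL1B (76th).

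IL1B, which encodes a leaderless cytokine released after cleavage by caspase-1, measured 218, 48.4 and 5.16 FPKM in the lesions of Bart, Jerome and Sadie, against 4.41, 7.67 and 0.845 FPKM in their healthy mucosa. The lesion of Sadie was below healthy mucosa of Jerome, so the tissues overlapped. In Bart the lesion was 49.5-fold higher, in Jerome 6.31-fold and in Sadie 5.16-fold (from the floor of 1 FPKM), the widest spread of log2 differences among the 5 genes (SD 1.80, n = 3 cats). Its mean log2 difference was 3.55 (standard error 1.46, adjusted p = 0.16 from limma, and 0.041 with the cat as a block). With 1 FPKM added in place of the floor, the call with the block was lost (adjusted p = 0.054).

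TNF, the cytokine of activated macrophages and T cells, measured 17.0, 13.8 and 9.80 FPKM in the lesions of Bart, Jerome and Sadie, against 7.71, 6.35 and 5.48 FPKM in their healthy mucosa. The tissues did not overlap, and the 3 cats kept the same order in both. The lesion was 2.21-fold higher in Bart, 2.17-fold in Jerome and 1.79-fold in Sadie, the narrowest spread of the 5 genes (SD 0.17 on the log2 scale, n = 3 cats). The mean log2 difference of 1.03 had a standard error of 0.29 (adjusted p = 0.069 from limma, and 0.031 with the cat as a block). In lesions TNF was the least abundant of the 5 genes per length in Bart and Jerome, and in Sadie it was above IL11 and IL1B.

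BIRC3, which encodes the ubiquitin ligase cIAP2 that couples TNF receptors to NF-kappa B and restrains cell death, measured 37.1, 49.6 and 49.0 FPKM in the lesions of Bart, Jerome and Sadie, against 10.96, 22.8 and 18.4 FPKM in their healthy mucosa. The tissues did not overlap, and Bart was the lowest cat in both, unlike for IL6, IL11 and TNF. The lesion was 3.38-fold higher in Bart, 2.18-fold in Jerome and 2.67-fold in Sadie. The mean of BIRC3 was 45.2 ± 7.08 FPKM for lesions and 17.4 ± 5.99 FPKM for healthy biopsies (SD, n = 3 each), and limma called the gene higher in lesions at a log2 difference of 1.43 with a standard error of 0.32 (adjusted p = 0.041, and 0.023 with the cat as a block). When any single library was left out BIRC3 lost its call (adjusted p = 0.053 to 0.13). It also lost the call without both biopsies of Jerome (0.18) or of Sadie (0.29) and kept it without those of Bart (0.034). Calls over all identifiers changed as well. They numbered 1588 in the full fit, 1 to 1435 without 1 library, 0 without Jerome or without Sadie, and 2136 without Bart.

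**Figure D2:**
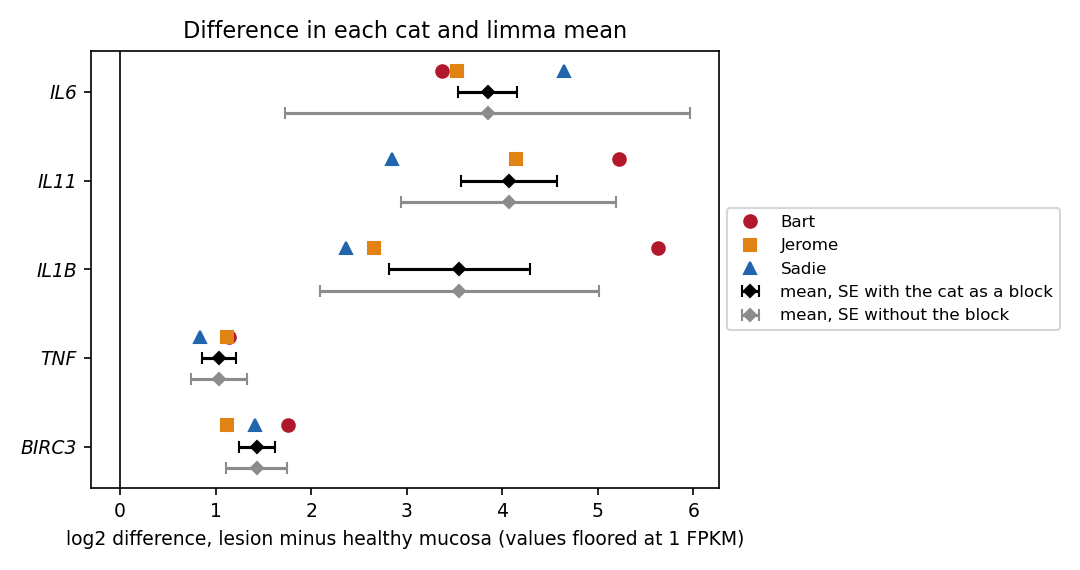
Log2 difference of lesion minus healthy mucosa (horizontal axis) for the 5 genes (vertical axis), with 1 coloured point per cat and the limma mean with its standard error, in black with the cat as a block and in grey without it. All 15 points lie above 0. For IL6 the standard error is 0.31 with the block and 2.12 without it, because the cats differ more in level than in the lesion difference.

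Lesion values lay above all healthy values for IL11, TNF and BIRC3, 3 of the 5 genes, against 16.7% of identifiers tested. A lesion at least 2-fold higher in each cat was measured for IL6, IL11, IL1B and BIRC3, 4 of the 5, against 8.81%, and TNF missed this mark in Sadie (1.79-fold). Both shares are over all identifiers, whereas a name required a difference of 2-fold or more. They therefore cannot measure how unusual the 5 genes are, and the shares among named identifiers were not counted. Between the lesions themselves, IL6 spanned 48.9-fold, IL1B 42.2-fold and IL11 20.1-fold from the highest to the lowest cat, whereas TNF spanned 1.74-fold and BIRC3 1.34-fold. Ratios of Bart to Sadie of at least 10 in lesions were seen for 1.04% of identifiers, and IL6 ranked 22nd, IL1B 23rd and IL11 48th of 13327. In lesions, IL6, IL11, IL1B and TNF ran in the order Bart, Jerome, Sadie, as did 19.3% of all identifiers. In healthy mucosa IL6 spanned 118-fold and IL1B 7.67-fold (both from the floor), and IL11 3.87-fold. With 1 library per cat and tissue, a difference between cats within a tissue cannot be tested.

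**Figure D3:**
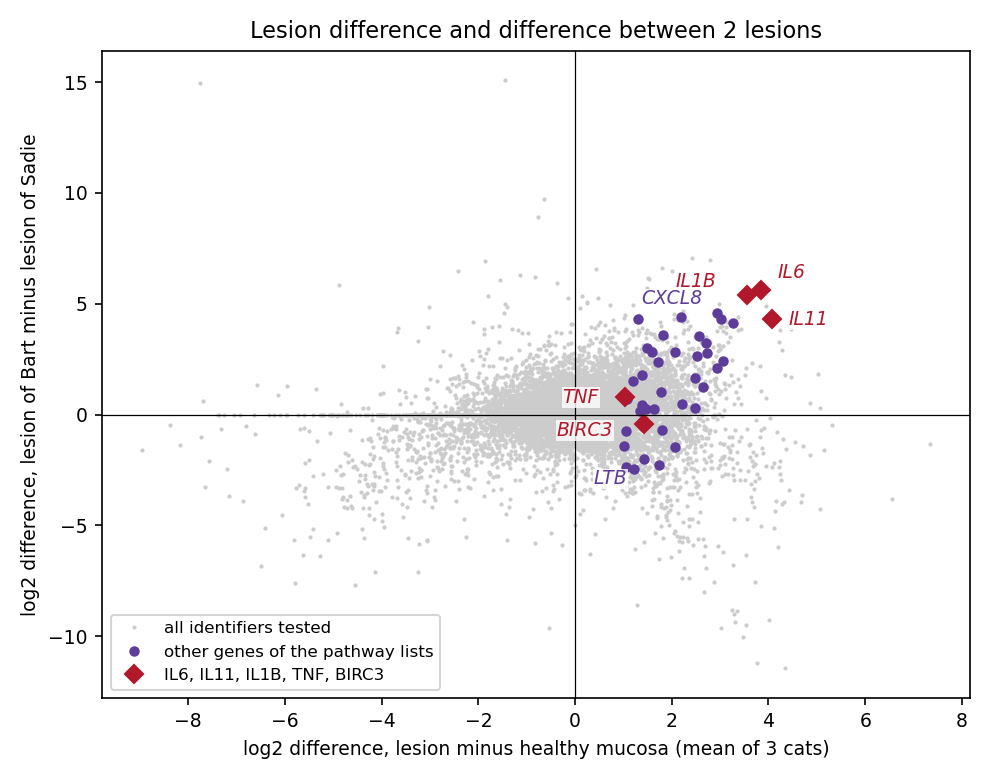
Mean log2 difference of lesion minus healthy mucosa (horizontal axis) against the log2 difference of the lesion of Bart minus that of Sadie (vertical axis), with 1 point per identifier tested, the related genes in purple and the 5 genes in red. IL6, IL1B and IL11 lie at the upper right, with lesion ratios of Bart to Sadie of 48.9, 42.2 and 20.1, and TNF (1.74) and BIRC3 (0.756) lie near 0 on the vertical axis.

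The related ligands, receptors, signaling proteins and targets were taken from 7 lists of general knowledge. Without the 5 genes, the lists held 152 symbols, of which 36 had a name and were tested. Among these 36, limma called 6 higher and 0 lower without the block (17 at an unadjusted p under 0.05), and 28 higher and 0 lower with the cat as a block. Of all named identifiers higher in lesions, 31.5% were called without the block and 68.9% with it, beside 5.31% and 12.2% of all identifiers tested, so that the 6 of 36 lay below the share of named identifiers. Their median log2 difference was 1.80, beside 1.61 over all named identifiers higher in lesions and -0.07 over all identifiers tested. These counts changed when a cat was left out, as did those over all identifiers. Without Jerome or without Sadie 0 of the 36 were called, with the block (29 and 30 at an unadjusted p under 0.05) or without it (13 and 19). Over all identifiers these fits called 97 and 0 with the block and 0 and 0 without it, so the loss was not particular to the 36. An unadjusted p under 0.05 was reached by 3817 and 3648 of all identifiers with the block, and by 2436 and 2139 without it. Without Bart 12 were called with the block, beside 1032 of all identifiers. In 33 of the 36 the lesion was higher in all 3 cats. Members of the lists that differed less than 2-fold, or belonged to the strongest falls, have no name and are not counted.

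Of the 27 genes of IL-6 family signaling, 7 had a name, IL6 and IL11 included. Of these 7, 0 were called by limma (5 at an unadjusted p under 0.05) and 6 were called higher with the block. Of all named identifiers higher in lesions, 31.5% were called without the block and 68.9% with it. Without the block, 907 of those 1292 had an unadjusted p under 0.05. OSM, oncostatin M, a gp130 cytokine of neutrophils, macrophages and T cells, measured 78.2, 45.7 and 3.95 FPKM in the lesions of Bart, Jerome and Sadie, against 5.49, 2.94 and 1.67 FPKM in their healthy mucosa (log2 difference 3.01, adjusted p = 0.14, and 0.042 with the block). LIF, leukemia inhibitory factor of the same family, was at 95.6, 27.6 and 8.00 FPKM in these lesions, against 18.1, 10.9 and 2.45 FPKM in healthy mucosa (adjusted p = 0.31, and 0.024 with the block). Both ran in the order Bart, Jerome, Sadie in both tissues, as IL6 and IL11 did. The subunits of IL-27, a cytokine that acts on T cells, ran otherwise: the lesions of Bart, Jerome and Sadie held 3.32, 13.8 and 9.19 FPKM of IL27 and 19.1, 34.1 and 30.7 FPKM of EBI3, with Bart the lowest. IL11RA, the receptor chain of IL-11, was at 47.8, 29.8 and 40.0 FPKM in lesions, against 7.31, 18.0 and 20.6 FPKM in healthy mucosa of the same cats, and was not called with the block either (adjusted p = 0.080, and 0.090 with the block).

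Of 26 genes of the IL-1 family, 7 had a name, IL1B included. Of these 7, 0 were called by limma (3 at an unadjusted p under 0.05) and 3 were called higher with the block: IL1B, IL1R1 and IL18RAP. The shares of all named identifiers higher in lesions were 31.5% and 68.9%, with 907 of 1292 at an unadjusted p under 0.05 without the block. All 7 named genes of the IL-1 family ran in the order Bart, Jerome, Sadie in lesions. IL1A, the alarmin that shares the receptor of IL1B and lies next to it in the RefSeq gene order (assembly F.catus_Fca126_mat1.0), measured 36.6, 12.9 and 1.83 FPKM in these lesions, against 5.07, 6.16 and 1.87 FPKM in healthy mucosa, the lesion of Sadie being no higher than the healthy biopsy (adjusted p = 0.48, and 0.19 with the block). IL1R1, the signaling receptor, was at 130, 47.1 and 45.6 FPKM in lesions, against 38.4, 29.3 and 20.8 FPKM in healthy mucosa (adjusted p = 0.15, and 0.043 with the block). Of 14 genes of the inflammasome, which cleaves the IL-1 beta precursor, 2 had a name. MEFV, the inflammasome sensor pyrin, rose to 26.3, 9.73 and 6.11 FPKM in the lesions of Bart, Jerome and Sadie, against 1.61, 2.16 and 0.872 FPKM in their healthy mucosa (log2 difference 2.94, adjusted p = 0.035). GSDMD, the pore protein through which IL-1 beta leaves cells, was at 9.09, 57.4 and 43.3 FPKM in the lesions of Bart, Jerome and Sadie, against 3.95, 19.0 and 8.00 FPKM in healthy mucosa (adjusted p = 0.23, and 0.029 with the block). GSDMD was thus lowest in the lesion with the most IL1B.

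Of 24 genes of TNF signaling, 6 had a name, TNF and BIRC3 included, 2 rose without the block and 4 with it, shares near the 31.5% and 68.9% of all named identifiers higher in lesions. TNFRSF1B, the TNF receptor of leukocytes and endothelium, rose to 94.4, 112 and 68.8 FPKM in the lesions of Bart, Jerome and Sadie, against 13.1, 28.2 and 19.7 FPKM in healthy mucosa (log2 difference 2.22, adjusted p = 0.023). LTA and LTB, the lymphotoxins made by lymphocytes, flank TNF in the RefSeq gene order and did not share its order of cats. LTB measured 12.1, 52.2 and 49.0 FPKM in the lesions of Bart, Jerome and Sadie, against 4.11, 22.5 and 17.2 FPKM in healthy mucosa (adjusted p = 0.30, and 0.022 with the block), and LTA 0.833, 5.33 and 5.11 FPKM in lesions. Bart was the lowest cat for both lymphotoxins, as for BIRC3, and the highest for TNF.

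Of 21 NF-kappa B subunits, kinases and inhibitors, 2 had a name. Of these, 1 rose without the block and 2 with it, beside 31.5% and 68.9% of all named identifiers higher in lesions. NFKBIE, the inhibitor I kappa B epsilon, rose to 43.1, 58.6 and 38.2 FPKM in the lesions of Bart, Jerome and Sadie, against 16.7, 22.8 and 15.7 FPKM in healthy mucosa (adjusted p = 0.030). TNFAIP3, the deubiquitinase A20 that ends NF-kappa B signaling, ran with the cytokines: 116, 35.8 and 16.3 FPKM in the lesions of Bart, Jerome and Sadie, against 32.1, 10.6 and 7.39 FPKM in healthy mucosa (adjusted p = 0.26, and 0.023 with the block).

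Of 30 target genes of NF-kappa B, 16 had a name and were tested, BIRC3 included, 3 rose without the block (BIRC3, CD80 and TNFAIP2) and 15 with it, beside 31.5% and 68.9% of all named identifiers higher in lesions. CXCL8, the chemokine that attracts neutrophils, measured 623, 186 and 25.8 FPKM in the lesions of Bart, Jerome and Sadie, against 101, 21.8 and 3.10 FPKM in healthy mucosa (adjusted p = 0.27, and 0.022 with the block). CSF3, the growth factor of neutrophils, was at 283, 80.3 and 16.3 FPKM in lesions, against 71.7, 5.87 and 0.432 FPKM in healthy mucosa (adjusted p = 0.26, and 0.024 with the block). As for IL6, healthy mucosa of Bart held more of both than the lesion of Sadie. TNFAIP2 rose to 54.7, 47.9 and 45.4 FPKM in lesions, against 25.3, 17.1 and 9.07 FPKM in healthy mucosa (adjusted p = 0.047). CD80, a costimulatory ligand of T cells, was even across the lesions (73.8, 63.4 and 59.6 FPKM) and higher than in healthy mucosa (7.93, 21.1 and 9.66 FPKM; adjusted p = 0.023). CCL5, the chemokine of T cells, was instead lowest in the lesion of Bart, at 72.3 FPKM, beside 401 FPKM in each of the other 2 lesions. The adhesion molecules of endothelium that bind leukocytes differed in their spread. ICAM1 was at 168, 156 and 125 FPKM in the lesions of Bart, Jerome and Sadie, against 78.9, 68.4 and 34.1 FPKM in healthy mucosa, without overlap (adjusted p = 0.054, and 0.026 with the block), and VCAM1 at 91.0, 21.9 and 29.3 FPKM, against 18.3, 5.26 and 3.53 FPKM (adjusted p = 0.090, and 0.022 with the block). BCL2A1, which like BIRC3 restrains cell death, ran with the cytokines instead, with 152, 66.9 and 24.0 FPKM in these lesions, against 11.05, 14.2 and 8.20 FPKM in healthy mucosa (adjusted p = 0.061, and 0.035 with the block). MMP9, a metalloproteinase, was the target that was not called in either fit (adjusted p = 0.24, and 0.098 with the block). Of 22 targets of STAT3, 4 had a name, 1 rose without the block and 4 with it, beside the same 31.5% and 68.9% of named identifiers. The first was TIMP1, an inhibitor of matrix metalloproteinases, at 1840, 813 and 784 FPKM in lesions, against 151, 288 and 108 FPKM in healthy mucosa (adjusted p = 0.029). CD14, the coreceptor for lipopolysaccharide on monocytes, was at 219, 205 and 108 FPKM in lesions, against 64.1, 72.6 and 25.4 FPKM in healthy mucosa, again without overlap (adjusted p = 0.064, and 0.022 with the block).

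In lesions, 24 of the 36 related genes (66.7%) ran in the order Bart, Jerome, Sadie, beside 27.3% of the named identifiers higher in lesions. This order held for 12 of the 16 targets of NF-kappa B and 4 of the 4 targets of STAT3, but for 1 of 6 genes of TNF signaling, TNF itself. The count is a description, since each cat gave 1 lesion.

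**Figure D4:**
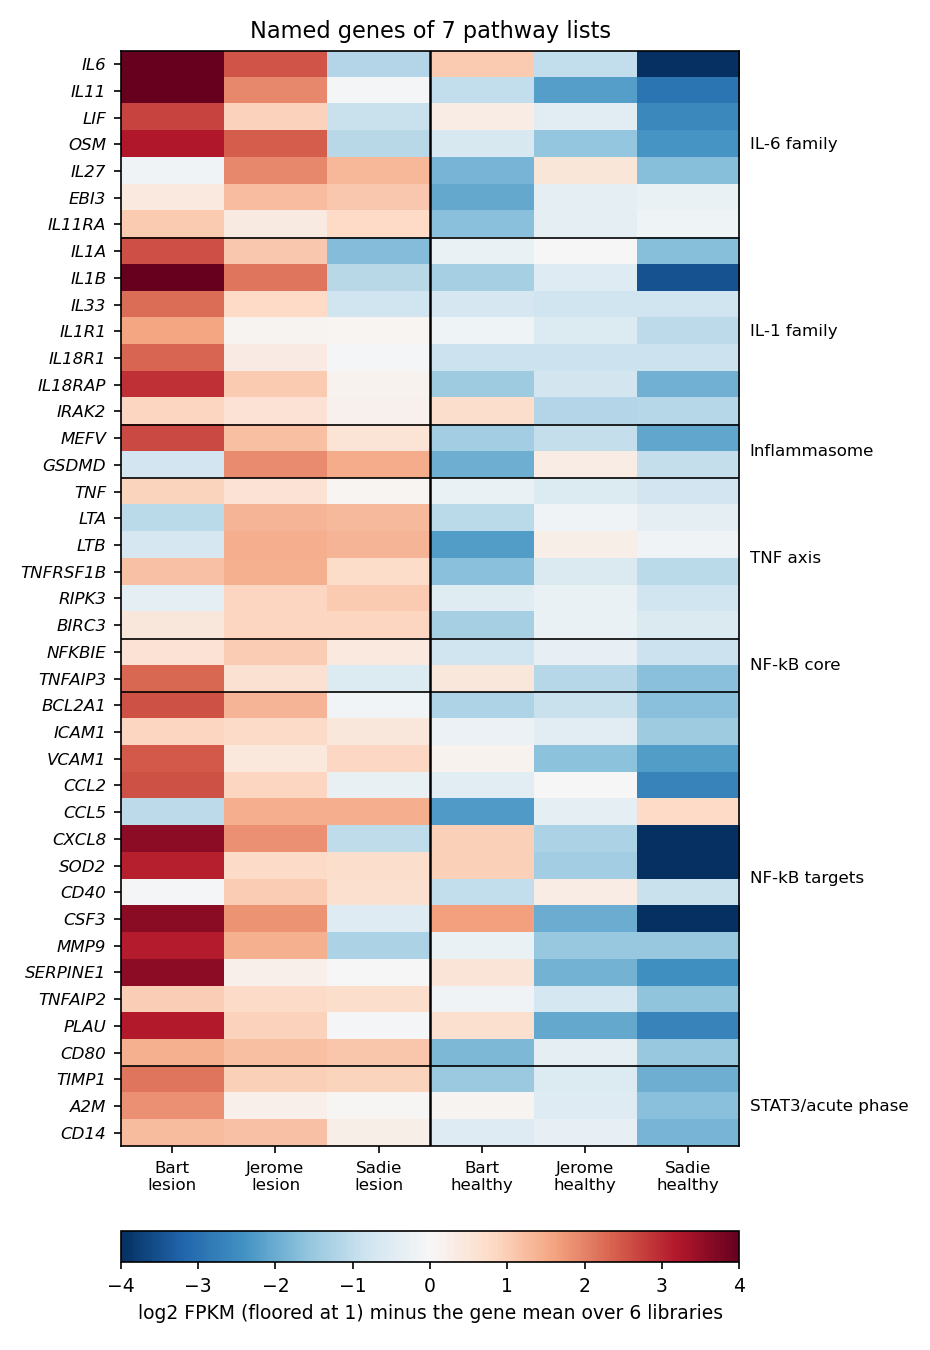
Log2 FPKM (floored at 1) minus the mean of the gene over the 6 libraries, as colour, for the 5 genes and the 36 related genes (rows), with lesions to the left of healthy mucosa (columns). Values beyond 4 or -4 are drawn in the end colours. IL6, IL11, IL1B, OSM, CXCL8 and CSF3 are darkest red in the lesion of Bart, whereas LTB, LTA and CCL5 are redder in the lesions of Jerome and Sadie than in that of Bart.

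The genes most like each of the 5 over the 6 libraries were taken as the 3 named identifiers with the highest Pearson correlation of log2 FPKM, given as a description across libraries that share tissue and cat. IL6 was most like CXCL8 (r = 0.994), LIF (0.981) and CSF3 (0.974). IL1B was most like PLIN2 (0.989), a coat protein of lipid droplets, PLEK (0.980) and TREM1 (0.977), of which TREM1 is an activating receptor of neutrophils and monocytes and PLEK a protein of platelets and leukocytes. IL11 was most like CCL14 (0.997), a chemokine, KCNS3 (0.993), a potassium channel subunit, and INHBA (0.993), the last encoding a subunit of activin A. TNF was most like ENG (0.992), the endothelial receptor endoglin, MEOX1 (0.992) and IL11 (0.989). BIRC3 was most like AGAP2 (0.997), IKZF1 (0.996), the lymphoid transcription factor Ikaros, and PTPN6 (0.995), the phosphatase SHP-1 of blood cells. Between the 5 genes, r was 0.870 to 0.989 among the 4 cytokines and 0.344 to 0.674 between BIRC3 and a cytokine.

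Named markers of other cells also differed between the same libraries. A name required a difference of 2-fold or more, so markers that differed less could not enter these sums. The 7 named neutrophil genes of 18 summed to 7434, 16200 and 2074 FPKM in the lesions of Bart, Jerome and Sadie, against 41400, 25520 and 5732 FPKM in healthy mucosa, nearly all of it S100A8, which epithelium also makes. Without S100A8, the sum chosen after seeing these values, the other 6 reached 602, 171 and 112 FPKM in lesions, against 29.1, 31.0 and 8.46 FPKM in healthy mucosa. This sum had the order of the cats for IL1B in each tissue, with Bart and Jerome close in healthy mucosa, whereas the sum of all 7 did not. In lesions 5 of the 7 genes ran in that order, but LTF was highest in Sadie (26.8 FPKM). In healthy mucosa MMP8 was highest in Bart (3.78 FPKM). MPO and ELANE, the granule enzymes that define the lineage, had no name. The 11 named macrophage and monocyte genes of 17 summed to 1107, 1786 and 1725 FPKM in lesions, against 244, 575 and 397 FPKM in healthy mucosa, with Bart the lowest cat in both, and 1 of them, LYZ, was listed at 0 in healthy mucosa of Bart. T cell genes (11 of 13 named) summed to 263, 575 and 714 FPKM in lesions, against 71.6, 199 and 187 FPKM in healthy mucosa, and B and plasma cell genes (8 of 14) to 378, 1032 and 2183 FPKM, against 29.3, 213 and 70.4 FPKM. Bart was again the lowest cat, as for BIRC3. Endothelial genes (9 of 11) summed to 2076, 914 and 851 FPKM in lesions, against 456, 254 and 204 FPKM in healthy mucosa. Both sums had the order of IL6, IL11 and TNF, but in lesions only 4 of the 9 genes did (ENG, KDR, PLVAP and VWF). PECAM1, for example, was at 320, 111 and 172 FPKM in the lesions of Bart, Jerome and Sadie. Fibroblast genes (4 of 13) summed to 4438, 1497 and 1888 FPKM in lesions, against 906, 549 and 640 FPKM in healthy mucosa. Most of the fibroblast sum was 1 gene, VIM, at 3448, 1181 and 1467 FPKM in lesions, and the collagen genes of that list had no name. No marker of these lymphocyte, endothelial or fibroblast lists was listed at 0. The part of these cells in the differences of the 5 genes was not tested. Skeletal muscle genes summed to 20.8 FPKM in the lesion of Bart, the library with the most IL6.

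**Figure D5:**
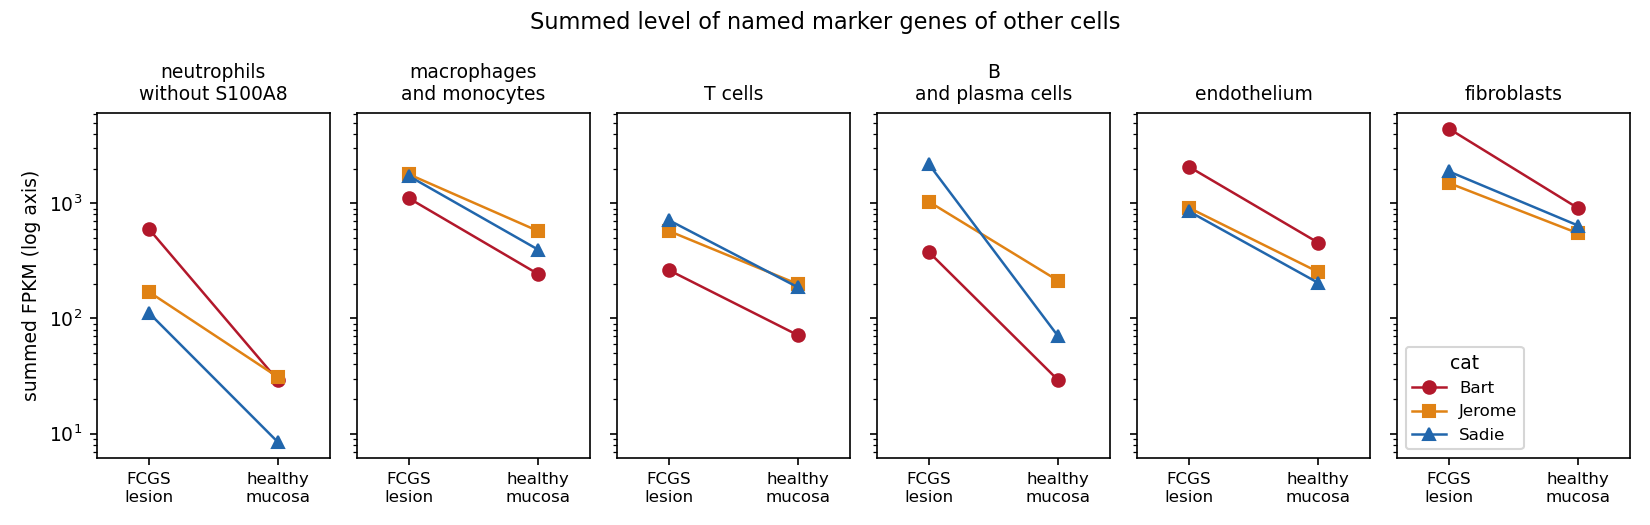
Summed FPKM (vertical axis, log scale) of the named markers of 6 kinds of cells in the FCGS lesion (left) and healthy mucosa (right) of each cat, with a line joining the 2 biopsies of a cat. Neutrophil genes without S100A8 are highest in the lesion of Bart (602 FPKM), whereas among the 3 lesions T cell and B and plasma cell genes are lowest in that of Bart (263 and 378 FPKM), still above every healthy biopsy. With S100A8 included, which is not drawn, the neutrophil sum is lower in each lesion than in healthy mucosa of the same cat.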

How the data were processed

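Biopsies were sequenced as strand-specific libraries of polyadenylated RNA, and the labels and the paper differ on read length. The authors deposited FPKM per Ensembl identifier for each library, all with status OK, and bcl2fastq, HISAT, Cufflinks and Cuffnorm are credited in the submitters' processing notes. Their versions and the genome build were not given in the sources used here. Scaling for length and library size before deposit leaves no counts, so no count model was used, and precision per gene is unknown.

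Of 1981 rows of the supplementary table at hand, each matched exactly 1 identifier to 5 significant digits, and 1929 gave a name. Further rows, those of the strongest falls, were left out. Its columns of fold changes were not used.

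FPKM values under 1 were set to 1, log2 was taken, and 13327 identifiers with at least 1 FPKM in 3 or more of 6 libraries were fitted with limma 3.58.1 in R 4.3.3 (tissue as the only term, trend, two-sided, Benjamini-Hochberg). This understates changes of weak genes. The fit without the block was also run on simulated data with independent noise and no difference between cats. The fit with the block was not run on them. Exact permutation of 3 against 3 libraries cannot go below p = 0.1, nor sign changes of 3 pairs below 0.25, so no exact test is given. The labels name the same animal for both biopsies. Deviations from tissue means correlated within cats at 0.49, 0.20 and 0.41 and between cats at -0.44 to 0.27. The lesion of Jerome correlated more with healthy mucosa of Sadie (0.27) than with that of Jerome (0.20). Deviations over 3 libraries sum to 0, which lowers values between cats, so these correlations do not test the pairing. Alternatives were another floor, 1 FPKM added, 2 other filters, quantile normalization, no trend, the block and leaving out libraries or cats. Tables and figures used Python 3.11.15.

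The 5 genes, lists and rules for named genes (the 5, the related genes that passed or belong to the same axes, and the 3 most alike) were chosen with earlier results of these data known. A gene of the lists is not reported here and was left out of their counts.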

Additional observations from a re-analysis of the deposited data

How the results depend on the processing

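All 5 differences stayed positive under every alternative run. With the cat as a replicate block, the log2 differences of IL6 (3.85), IL11 (4.07), IL1B (3.55) and TNF (1.03) passed the test, 5 of 5 genes and 3098 identifiers did, and BIRC3 kept its call. In fits chosen after seeing the data, the block with a floor of 0.1 FPKM gave 3.94, 4.07, 3.63 and 1.03 (5 genes, 2870 identifiers), with quantile normalization 3.93, 4.04, 3.57 and 1.04 (5 genes, 2921 identifiers), and with 1 FPKM added 3.56 for IL6, 3.56 for IL11 and 0.93 for TNF (4 genes, 3158 identifiers). Without a filter, 526 identifiers and 0 of the 5 passed, BIRC3 (1.43) being lost at an adjusted p of 0.086; more identifiers were tested. Requiring 1 FPKM in all 6 libraries removed IL6 and IL1B.

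Leaving out a library or a cat, the log2 difference was 1.90 to 5.40 for IL6, 2.96 to 5.13 for IL11, 2.29 to 4.99 for IL1B, 0.85 to 1.25 for TNF and 1.13 to 1.66 for BIRC3. Among the 5 genes these fits called 0 to 1, with 1 to 5 reaching an unadjusted p under 0.05. Over all identifiers they called 0 to 2136, with 2139 to 5001 reaching an unadjusted p under 0.05. With the block and without a cat, the fits called 0 to 3 of the 5, and 1032 identifiers without Bart, 97 without Jerome and 0 without Sadie. All 5 reached an unadjusted p under 0.05 there, as did 5084, 3817 and 3648 of all identifiers. In those fits IL6 was 3.45 to 4.09, IL11 3.49 to 4.68, IL1B 2.51 to 4.14 TNF 0.98 to 1.13 and BIRC3 1.27, 1.59 and 1.44. The cytokines were thus called only in fits with the block. Without Jerome or without Sadie only 97 or 0 identifiers were called at all, so those fits cannot show what either cat adds to these genes. Without Bart, IL6, IL11 and IL1B kept their calls with the block (adjusted p = 0.0497 from limma for each). TNF (0.072) and BIRC3 (0.051) did not. The values of IL6, IL11, IL1B and BIRC3 are almost equal and lie on either side of 0.05. Values of IL6 and IL1B in healthy mucosa of Sadie lie under the floor, so their folds there depend on it.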

Other observations

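The balance between the cytokines differed between libraries. Per length, IL6 was 71.9, 23.7 and 2.56 times TNF in the lesions of Bart, Jerome and Sadie, against 15.3, 4.48 and 0.151 times TNF in their healthy mucosa. IL6 was 5.62, 6.77 and 4.85 times IL1B in the same lesions, against 26.8, 3.71 and 0.980 times IL1B in healthy mucosa. As measured, this ratio was closer among lesions than among healthy biopsies. No floor was used in these ratios. In healthy mucosa of Sadie IL6 (0.828 FPKM) and IL1B (0.845 FPKM) were under 1 FPKM, so 0.980 and 0.151 are uncertain. BIRC3 was 2.18, 3.59 and 5.004 times TNF in lesions, against 1.42, 3.59 and 3.35 times TNF in healthy mucosa.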
